A study of Mus musculus with 12 samples.

Results

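The genes described here encode the SNARE proteins and the partners that dock, fuse and recycle vesicles. They were taken from the table of counts by symbol, as all names starting with Stx, Vamp or Cplx, those starting with Syt, Snap or Sv2 followed by a digit or a letter from a to c, and Syn1, Syn2, Syn3, Syp, Nsf, Napa, Napb and Napg. This rule was met by 46 of the 9073 genes counted. It uses names and no measured value, although it was set with earlier results of these data known. A further 22 symbols that meet the rule, among them Sv2a, Sv2b, Syt3 and Syt7, are not rows of this table, which lists only genes with at least 1 count in every column. SNARE proteins are short membrane-anchored proteins that sit on vesicles and on target membranes and pull both together by winding into a common helical bundle. In neurons the vesicle protein synaptobrevin (Vamp1, Vamp2) pairs with syntaxin (Stx1a) and Snap25 on the plasma membrane, Munc18 proteins (Stxbp) guide the assembly, synaptotagmins and complexins tie it to calcium, and Nsf with its SNAP adaptors takes spent bundles apart. Sensory neurons use this machinery to release transmitter and neuropeptides and to add membrane to growing axons, while other family members serve the Golgi, endosomes and lysosomes in all cells.

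The series measured RNA of adult mouse dorsal root ganglion (DRG) sensory neurons that carried RPL22HA+/+ together with Advillin-Cre+, so that Cre recombinase driven by the sensory neuron gene Advillin tags ribosomal protein L22 with haemagglutinin (HA). There were 4 groups with 3 columns of counts each. IP shGpr151 and IP control hold RNA pulled down with an anti-HA antibody, and Input shGpr151 and Input control hold the lysate RNA before the pulldown. The neurons were infected with adeno-associated virus (AAV) carrying either a short hairpin RNA named for the receptor gene Gpr151 (AAV-shGpr151) or a control (AAV-control). All groups share the genotype, and per the series design all mice had a preconditioning sciatic nerve injury. The labels give neither the age of the mice nor which mice stand behind a column, and name both cultured neurons and fresh ganglia as the source.

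Over all genes the 3 columns of a group agreed to within counting noise, with 0.980 to 1.05 of chi-square for each degree of freedom over all genes in the 12 pairs of columns that share a group, against 1.80 to 156 in the 54 pairs that do not. Over the members alone it was 0.682 to 1.496 within groups, and the highest chi-square of any member and group was 26.9 over 3 columns, for Syn3 in IP control, a split wider than counting noise gives. The columns of a group were therefore added up and taken as 1 sample, and no difference below has a replicate check. The summed depth was 3285258 counts for IP shGpr151, 4245486 for IP control, 6148538 for Input shGpr151 and 6332991 for Input control. All intervals are 95% and allow for counting error only, because each group counts as 1 sample. Reads were amplified by PCR with no molecular identifiers to tell copies apart, which the intervals do not allow for. Genes are termed called, higher or lower, if the quasi-likelihood test of edgeR on the 12 columns gave an adjusted p under 0.05 among 8312 tested genes, and such a call compares these libraries, not the conditions. Gpr151 itself held 250 counts in the IP library labelled shGpr151 and 314 in IP control, a log2 ratio of -0.0018 (-0.25 to 0.24), and 13 counts in the Input library labelled shGpr151 and 24 in Input control, a log2 ratio of -0.86 (-1.96 to 0.17). The target was thus not called lower in either, although its Input columns did not overlap after scaling, and it lay level in the pulldown. The libraries are therefore named by their labels throughout. The IP and Input libraries labelled shGpr151 are called the shGpr151-labelled pair below, and the other 2 the control pair. Of 14 neuronal markers 13 were called higher in IP than in Input in each pair, and Map2 was called lower in the control pair, at -0.57 (-0.93 to -0.21).

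The pulldown separated this family by member. Snap25, Vamp2, Syt4, Syt11, Syn2 and Cplx2, parts of the neuronal release machinery, were called higher in IP than in Input in both pairs, and so were Stx16, Stx18, Stx12, Vamp4 and Snap47, which are not particular to neurons. Snap23, Stxbp2, Vamp3, Vamp5 and Vamp8, which serve fusion in many cell types, and the endosomal Stx8 were called lower in both. Of the neuronal machinery, Stx1a, Syn1 and Syt5 were called in neither pair, Syp and Syn3 were called higher in the libraries labelled shGpr151 alone, and Vamp1 was called lower in control alone. These genes were picked out with their values known, and no test of neuronal against other members was made. In the libraries labelled shGpr151, 26 of the 44 tested members were called higher in IP than in Input and 6 lower, against 33.6% of all tested genes called higher and 33% called lower. In control the counts were 23 higher and 8 lower, against 32.5% and 32.8% of all genes. The median log2 ratio of the members was 0.80 in the libraries labelled shGpr151 and 0.65 in control, beside 0.099 and 0.056 for all tested genes. At least 2-fold higher were 20 members in the libraries labelled shGpr151 and 15 in control, which is 45.5% of those tested beside 26.4% of all genes in the libraries labelled shGpr151, and 34.1% beside 23.7% in control. At least 2-fold lower were 6 members in each pair, which is 13.6% of those tested, beside 26.6% of all genes in the libraries labelled shGpr151 and 25.2% in control. Stx3 and Stx17 were too low to test, at 6 to 18 and 9 to 36 summed counts a group. These ratios are on library sizes scaled by the trimmed mean of M values (TMM). Unscaled total counts would raise every IP over Input ratio by about the same step, since TMM moved them by -2.20 in the libraries labelled shGpr151 and by -2.175 in control. On total counts alone 39 members were called higher in each treatment, with 5 lower in the libraries labelled shGpr151 and 4 in control, so directions here are relative to that shift. In RNA from many cells, a lower level in Input or IP from fewer cells of a type and one from less RNA per cell cannot be told apart.

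**Figure D1:**
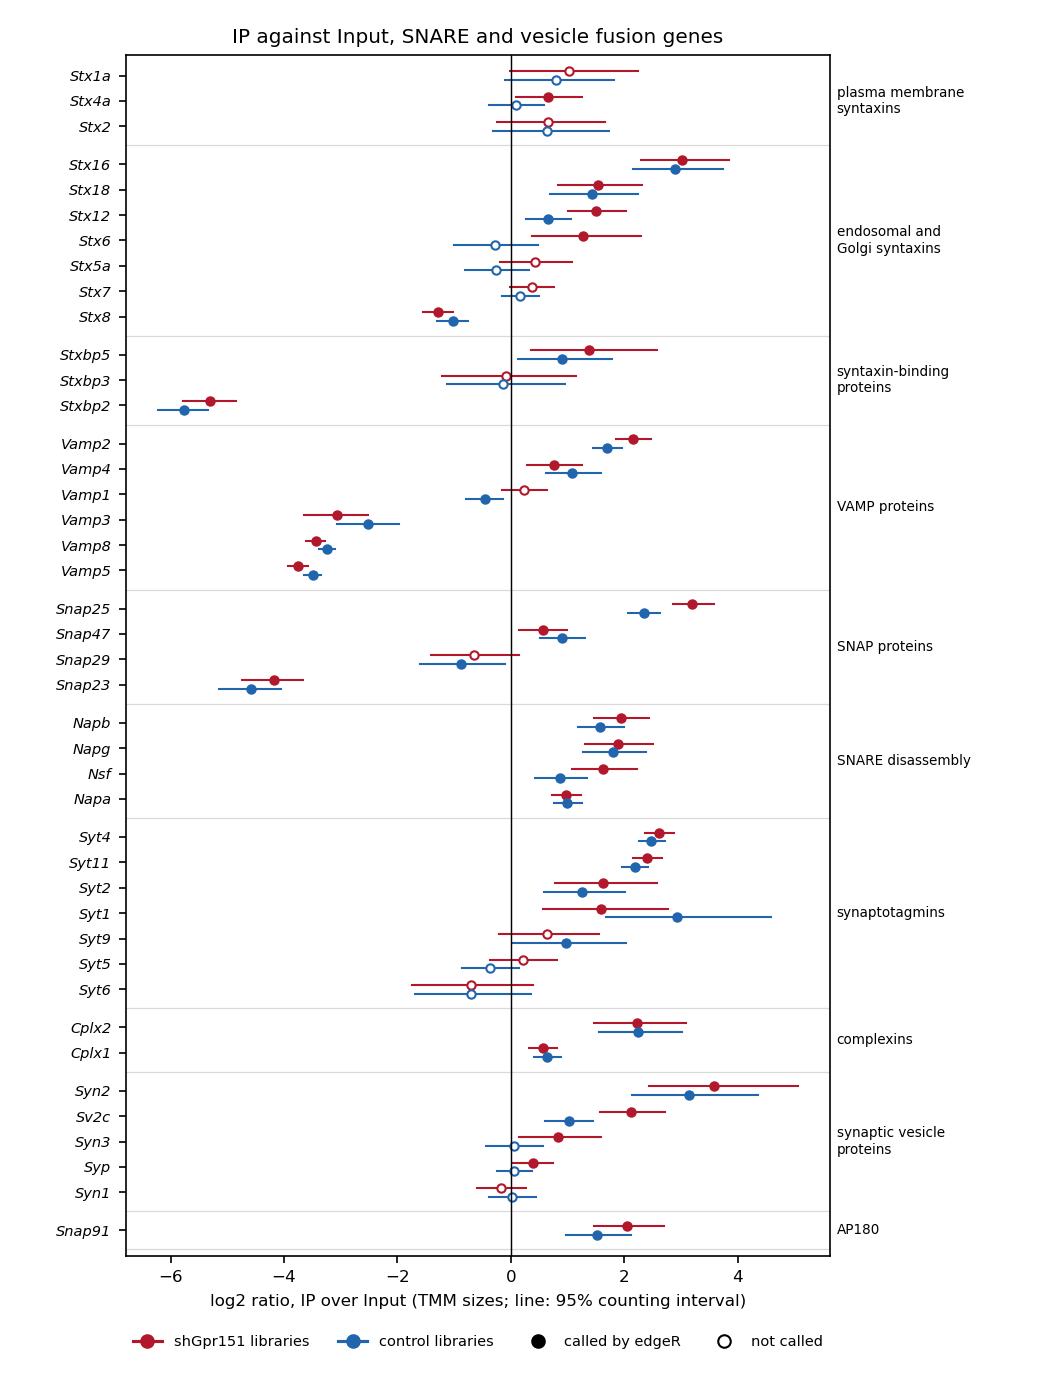
Log2 ratio of IP over Input for 42 of the 44 tested members, ordered by role down the page, in the libraries labelled shGpr151 (red) and in control (blue), with lines for 95% counting intervals and filled points for edgeR calls. Snap23, Stxbp2, Vamp3, Vamp5 and Vamp8 lie left of -2 in both treatments, and Syn2, Stx16, Snap25, Syt4 and Syt11 lie right of 2.

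Among the SNAP proteins, which supply paired helices to the bundle on the target membrane, the neuronal member Snap25 (ENSMUSG00000027273) held 524, 490 and 519 counts in the columns of IP shGpr151, 552, 602 and 624 in IP control, 31, 16 and 21 in Input shGpr151 and 41, 40 and 35 in Input control. As CPM on the scaled library sizes, called normalised CPM below, these sums were 216 in IP shGpr151, 199 in IP control, 23.4 in Input shGpr151 and 39.4 in Input control. No IP column overlapped an Input column, which also held in both pairs for Stx1a, a gene not called. The log2 ratio of IP over Input for Snap25 was 3.20 (2.85 to 3.58) in the libraries labelled shGpr151 and 2.34 (2.07 to 2.63) in control. Its broadly expressed paralogue Snap23 (ENSMUSG00000027287) ran the other way, with 34 summed counts in IP shGpr151, 33 in IP control, 253 in Input shGpr151 and 260 in Input control. Its log2 ratio was -4.19 (-4.75 to -3.67) in the libraries labelled shGpr151 and -4.57 (-5.14 to -4.05) in control. Snap47, which sits mostly on internal membranes, was called higher in IP in both, at 0.56 (0.15 to 0.99) in the shGpr151-labelled pair and 0.90 (0.51 to 1.31) in the control pair. Without the second column of Input shGpr151 the first of these was 0.48 and not called. Snap29, which joins autophagosomes to lysosomes, was called lower in the control pair, at -0.87 (-1.61 to -0.11), and that call did not hold without any 1 of 4 of the 6 control columns (-0.45 without the first Input column).

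Of the 6 VAMP proteins, the vesicle side of the bundle, 2 were called higher and 3 lower in both pairs, and Vamp1 was called lower in control alone. Vamp2 (ENSMUSG00000020894), the main synaptobrevin of small clear vesicles, held 367, 329 and 377 counts in IP shGpr151, 465, 467 and 458 in IP control, 37, 26 and 35 in Input shGpr151 and 46, 47 and 48 in Input control. Its log2 ratio of IP over Input was 2.16 (1.86 to 2.48) in the libraries labelled shGpr151 and 1.71 (1.45 to 1.97) in control. Vamp4, a Golgi and endosome protein, was also called higher, at 0.76 (0.29 to 1.26) in the shGpr151-labelled pair and 1.09 (0.62 to 1.59) in the control pair. Vamp3 (cellubrevin), a recycling endosome protein, was called lower, at -3.07 (-3.65 to -2.51) in the shGpr151-labelled pair and -2.51 (-3.07 to -1.98) in the control pair. Vamp8 (ENSMUSG00000050732), or endobrevin, of late endosomes and of secretory granules outside neurons, held 353 summed counts in IP shGpr151, 486 in IP control, 1569 in Input shGpr151 and 1520 in Input control. It stood at -3.44 (-3.61 to -3.27) in the libraries labelled shGpr151 and -3.24 (-3.39 to -3.09) in control. Vamp5 (ENSMUSG00000073002), or myobrevin, first known from muscle, stood at -3.75 (-3.93 to -3.58) in the shGpr151-labelled pair and -3.50 (-3.65 to -3.34) in the control pair. Vamp5 and Vamp8 lie on the same strand of chromosome 6, and how the counting dealt reads between close neighbours was not stated in the sources at hand. Vamp1, the other synaptobrevin, was 0.24 (-0.15 to 0.63) in the libraries labelled shGpr151 and -0.46 (-0.78 to -0.13) in control, called only in control, and the control call did not hold without any 1 of 4 of the 6 control columns (-0.25 to -0.43).

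Syntaxins, the target membrane anchors, were mixed by compartment. None of the 4 tested plasma membrane syntaxins was called in control by edgeR, and Stx4a alone was called in the libraries labelled shGpr151, at 0.65 (0.092 to 1.25), a call lost without any 1 of 3 of those 6 columns (0.52 to 0.66). Stx1a, the syntaxin of the release site, rests on 45 summed counts in IP shGpr151, 63 in IP control, 9 in Input shGpr151 and 12 in Input control, and its ratios of 1.03 (-0.019 to 2.25) in the shGpr151-labelled pair and 0.80 (-0.11 to 1.82) in the control pair were not called. Of 7 tested endosomal and Golgi syntaxins, 4 were called higher and 1 lower in the libraries labelled shGpr151, and 3 and 1 in control. Stx16, of the trans-Golgi network, had the largest ratios of these, 3.02 (2.30 to 3.84) in the shGpr151-labelled pair and 2.90 (2.16 to 3.75) in the control pair, on 317 summed counts in IP shGpr151, 338 in IP control, 16 in Input shGpr151 and 15 in Input control. Stx18, an ER syntaxin, was 1.54 (0.84 to 2.31) in the shGpr151-labelled pair and 1.43 (0.69 to 2.25) in the control pair. Stx8, which acts in late endosome fusion, was the 1 called lower, at -1.29 (-1.56 to -1.02) in the shGpr151-labelled pair and -1.03 (-1.30 to -0.75) in the control pair.

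Among the syntaxin-binding proteins, Stxbp5 was higher in IP and Stxbp2 lower. Stxbp5 (tomosyn, which holds back fusion) was called in both, at 1.37 (0.35 to 2.57) in the shGpr151-labelled pair and 0.91 (0.14 to 1.78) in the control pair, with 1.96 in the first without the second Input column, and with the control call lost at 0.73 without the second Input control column and at 0.87 without the third. Stxbp2 (ENSMUSG00000004626; Munc18-2), known from granule release by immune and epithelial cells, held 15, 15 and 12 counts in IP shGpr151, 13, 14 and 20 in IP control, 220, 221 and 235 in Input shGpr151 and 288, 251 and 308 in Input control. That is 5.91 normalised CPM in IP shGpr151, 5.27 in IP control, 233 in Input shGpr151 and 287 in Input control, with log2 ratios of -5.30 (-5.78 to -4.85) in the shGpr151-labelled pair and -5.77 (-6.22 to -5.34) in the control pair, the lowest of any member in either pair. Macrophage markers were lower in IP as well on TMM sizes, 7 of the 8 tested in each pair and the other higher, with a median of -1.65 in the shGpr151-labelled pair and -1.52 in the control pair. Both medians are smaller in size than the TMM step of -2.20 and -2.175 in these pairs, so their direction depends on that scaling. The summed level of the 8 ran from 206 to 213 normalised CPM over the columns of IP shGpr151, from 202 to 210 in IP control, from 714 to 793 in Input shGpr151 and from 671 to 714 in Input control, and their part in the Stxbp2, Vamp8 and Snap23 values was not tested.

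Because a ratio of counts for a pair of genes within 1 library needs no scaling, these pairs can be set side by side without the TMM step. The pairs were chosen after their values were seen, and the counts are not per length, so only the change of a ratio between libraries is read. The genes of each pair had been called in opposite directions in IP against Input, so a large change between IP and Input follows from that choice. These changes, and those between the Input libraries, restate the ratios of the single genes and are no separate support. Vamp2 stands in both VAMP pairs. The count ratio of Snap25 to Snap23 was 45.1 in IP shGpr151 and 0.269 in Input shGpr151, a 168-fold difference, and 53.9 in IP control and 0.446 in Input control, a 121-fold difference. Vamp2 over Vamp8 differed 48.7-fold in the shGpr151-labelled pair and 30.8-fold in the control pair, and Vamp2 over Vamp3 37.5-fold in the shGpr151-labelled pair and 18.6-fold in the control pair. Between the IP libraries none of these ratios moved by an amount outside its counting interval, with Vamp2 over Vamp8 at 3.04 in IP shGpr151 and 2.86 in IP control. Between the Input libraries Snap25 over Snap23 was 0.269 in Input shGpr151 and 0.446 in Input control, a log2 difference of -0.73 (-1.23 to -0.23). Vamp2 over Vamp3 was 0.817 in Input shGpr151 and 1.66 in Input control, a log2 difference of -1.02 (-1.57 to -0.48), and Vamp2 over Vamp8 differed by -0.57 (-0.96 to -0.19).

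**Figure D2:**
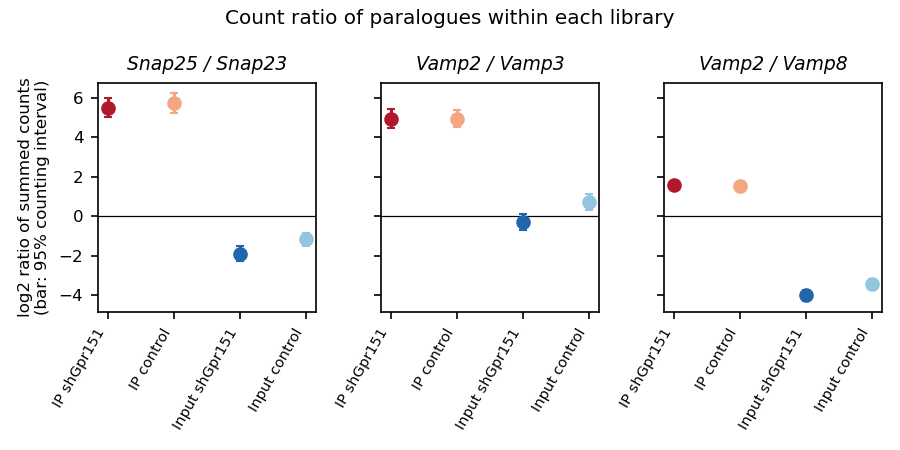
Log2 ratio of summed counts of 2 related genes within each library, with bars for 95% counting intervals. In all 3 pairs both IP libraries lie above both Input libraries, a direction known when the pairs were chosen, and the IP libraries lie close together.

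Of 7 tested synaptotagmins, 4 were called higher in the libraries labelled shGpr151 and 5 in control. Syt4 and Syt11, which lack a calcium-binding residue in one of their C2 domains, were the most deeply counted of the family. Syt4 (ENSMUSG00000024261) held 669, 704 and 694 counts in IP shGpr151, 949, 856 and 948 in IP control, 40, 41 and 57 in Input shGpr151 and 48, 60 and 55 in Input control, with log2 ratios of 2.61 (2.37 to 2.87) in the shGpr151-labelled pair and 2.48 (2.25 to 2.72) in the control pair. Syt11 (ENSMUSG00000068923) had 2.41 (2.16 to 2.67) in the shGpr151-labelled pair and 2.19 (1.96 to 2.42) in the control pair. The fast sensors Syt1 and Syt2 had few counts, with Syt1 at 66 in IP shGpr151, 116 in IP control, 9 in Input shGpr151 and 5 in Input control, and Syt2 at 98, 145, 13 and 20 in that order. Syt1 was 1.58 (0.57 to 2.78) in the shGpr151-labelled pair and 2.94 (1.68 to 4.59) in the control pair, and Syt2 was 1.62 (0.78 to 2.58) in the shGpr151-labelled pair and 1.26 (0.58 to 2.02) in the control pair. Without the third column of Input shGpr151 the first Syt1 ratio was 2.58. Syt9 was called in the control pair alone, at 0.97 (0.034 to 2.04), a call lost without 1 of 3 columns and at 0.66 without the second Input control column, and was 1.52 without the third. No synaptotagmin or complexin was called lower. Cplx1 and Cplx2, which hold the part-zipped bundle ready, were called higher in both treatments, with Cplx2 at 2.23 (1.47 to 3.10) in the shGpr151-labelled pair and 2.25 (1.56 to 3.02) in the control pair.

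Of the vesicle proteins, Syn2, a synapsin that tethers vesicles to actin, had the highest IP over Input point value of all members in both treatments. It held 56, 61 and 60 counts in IP shGpr151, 76, 63 and 74 in IP control, 1, 3 and 2 in Input shGpr151 and 2, 2 and 4 in Input control, and its log2 ratios were 3.59 (2.44 to 5.06) in the shGpr151-labelled pair and 3.14 (2.13 to 4.37) in the control pair. These intervals take in the values of Snap25 and Stx16, so the rank is not resolved. A member with so few Input counts passed the count filter only through its IP columns. Syn1, its paralogue, stood at -0.17 (-0.59 to 0.26) in the shGpr151-labelled pair and 0.024 (-0.38 to 0.44) in the control pair and was not called in either. Syp (synaptophysin) was 0.39 (0.043 to 0.74) in the shGpr151-labelled pair, called, and 0.059 (-0.25 to 0.38) in the control pair, not called. The call was lost at 0.20 without the third column of IP shGpr151, and also at 0.29 without the second and at 0.37 without the third Input column. Sv2c, a transporter-like vesicle glycoprotein, was called in both, at 2.12 (1.58 to 2.71) in the shGpr151-labelled pair and 1.02 (0.60 to 1.46) in the control pair. Syn3 held 18, 61 and 62 counts in the columns of IP control, the most unequal split of any member and group, and its ratio in the control pair was 0.052 (-0.44 to 0.57), or 0.53 and called without the first of those columns. All 4 disassembly genes were called higher in both treatments. The ATPase Nsf had 1.63 (1.08 to 2.23) in the shGpr151-labelled pair and 0.87 (0.42 to 1.34) in the control pair, and the adaptors Napa, Napb and Napg lay between 0.98 and 1.94 in the libraries labelled shGpr151 and between 1.00 and 1.81 in control. Snap91, the clathrin assembly protein AP180 that the rule takes by name but that is no SNARE, had 2.05 (1.46 to 2.71) in the shGpr151-labelled pair and 1.52 (0.97 to 2.12) in the control pair, with 2.65 in the shGpr151-labelled pair without its first Input column.

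Promoter windows were looked up to show the start regions of members at both ends of this range. RefSeq windows of GRCm38.p6, from 250 bases before to 50 bases after a gene's start, were at hand for 37 of the 46 members, while the build that the submitters' processing notes name for the counts is GRCm39. Motifs searched on both strands were TTCAGCACC and GGACAGCGC, which are parts of the RE1 element bound by the repressor REST, TGACGTCA, the cAMP response element, and GGGCGG, the GC box of Sp1-type factors, which was added after the windows were seen. Capitals mark matches, or the reverse complement of the motif. The first pair is from members high in IP (Syn2 at chr6:115134652-115134951, plus strand, and Syt11 at chr3:88772550-88772849, minus strand), the next pair from members low in IP (Stxbp2 at chr8:3630859-3631158, plus strand, and Vamp8 at chr6:72390618-72390917, minus strand), and the last is Syn1 at chrX:20920869-20921168, minus strand.
Syn2: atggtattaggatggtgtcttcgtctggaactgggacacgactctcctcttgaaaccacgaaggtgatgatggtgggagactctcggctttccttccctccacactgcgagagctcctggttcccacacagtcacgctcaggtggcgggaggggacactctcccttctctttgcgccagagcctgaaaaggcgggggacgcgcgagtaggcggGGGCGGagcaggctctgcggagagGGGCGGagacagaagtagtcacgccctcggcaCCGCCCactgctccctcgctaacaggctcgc
Syt11: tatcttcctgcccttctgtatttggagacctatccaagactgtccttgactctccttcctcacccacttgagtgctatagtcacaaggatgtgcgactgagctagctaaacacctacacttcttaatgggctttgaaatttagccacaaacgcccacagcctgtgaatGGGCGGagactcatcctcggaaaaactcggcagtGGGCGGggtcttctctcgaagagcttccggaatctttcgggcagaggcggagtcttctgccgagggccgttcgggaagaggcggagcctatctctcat
Stxbp2: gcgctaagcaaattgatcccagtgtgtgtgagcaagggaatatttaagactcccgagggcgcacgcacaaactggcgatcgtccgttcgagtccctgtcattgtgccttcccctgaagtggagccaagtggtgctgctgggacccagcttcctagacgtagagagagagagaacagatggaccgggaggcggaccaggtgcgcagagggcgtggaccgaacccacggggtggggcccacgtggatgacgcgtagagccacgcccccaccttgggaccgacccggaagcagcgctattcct
Vamp8: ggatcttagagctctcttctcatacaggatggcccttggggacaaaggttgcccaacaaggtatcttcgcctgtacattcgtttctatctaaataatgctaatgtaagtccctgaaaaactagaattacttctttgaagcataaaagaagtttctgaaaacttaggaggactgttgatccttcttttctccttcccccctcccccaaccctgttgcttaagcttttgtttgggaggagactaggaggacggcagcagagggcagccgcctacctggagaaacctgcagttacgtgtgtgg
Syn1: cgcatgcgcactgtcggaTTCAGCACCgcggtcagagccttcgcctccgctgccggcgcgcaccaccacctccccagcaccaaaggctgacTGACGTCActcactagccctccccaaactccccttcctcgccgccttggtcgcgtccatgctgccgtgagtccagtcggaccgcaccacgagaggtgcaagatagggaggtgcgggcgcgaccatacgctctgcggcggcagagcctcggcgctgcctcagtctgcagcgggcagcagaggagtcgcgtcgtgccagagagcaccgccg
The Syn1 window alone among the members held TTCAGCACC, which 0.433% of all genes in the promoter table hold. Among genes of the count table that have a window the share was 0.444%. The Syn1 window also held TGACGTCA, found in 3 of the 37 members (Syn1, Napa and Stxbp3). That motif was in 3.73% of genes of the count table that have a window and in 2.03% of all genes. GGACAGCGC was in none of the 37 members, against 0.805% of genes of the count table that have a window and 0.477% of all genes. GGGCGG was found in 28 of 37 members, which is 75.7%, beside 71.6% of the genes of the count table that have a window and 38.2% of all genes. Syn2 has another window in the promoter table, which held no match and is not shown. GGGCGG was in 15 of the 18 members called higher in IP in control that have a window, but not in Cplx2, Napb and Nsf. It was in 3 of the 7 called lower (Vamp5, Stx8 and Vamp1). The windows shown do not stand for all members high or low in IP. No test was made of these counts, and a match is a run of letters, not a shown site.

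The other genes of docking, priming and fusion, a list of 68 of which 45 were in the table and tested, also divided. In the libraries labelled shGpr151, 20 were called higher in IP than in Input and 13 lower. These are 44.4% and 28.9% of the list, beside 33.6% and 33.0% of all tested genes. In control 18 were called higher and 12 lower, or 40% and 26.7%, beside 32.5% and 32.8% of all tested genes. The medians were 0.45 in the shGpr151-labelled pair and 0.57 in the control pair, beside 0.099 and 0.056 for all tested genes. Slc17a6, the vesicular glutamate transporter VGLUT2 of most sensory neurons, was at 5.58 (5.04 to 6.17) in the shGpr151-labelled pair and 5.72 (5.17 to 6.34) in the control pair. Cadps, which primes dense-core vesicles for peptide release, was at 2.37 (1.71 to 3.11) in the shGpr151-labelled pair and 2.91 (2.15 to 3.80) in the control pair, and the Golgi SNARE Bet1l at 2.80 (2.35 to 3.28) in the shGpr151-labelled pair and 2.35 (1.95 to 2.77) in the control pair. At the other end Unc13d (Munc13-4), a priming factor of blood cell granules, was at -7.45 (-7.58 to -7.32) in the shGpr151-labelled pair and -8.15 (-8.28 to -8.03) in the control pair. The 45 genes summed to 45277 counts in Input shGpr151 and 58985 in Input control, above the 10542 and 9604 of the 14 neuronal markers. The narrow Input interval of Unc13d, given below, means that it held much of these sums. How its reads were assigned was not tested. Markers of other cells were not all depleted, since 5 of 8 satellite glia markers were called higher and 2 lower in the libraries labelled shGpr151, and 3 higher and 4 lower in control. Of 6 Schwann cell markers 2 were called higher and 3 lower in each pair, and of 5 endothelial and mural markers 0 higher and 3 lower in each. Of 5 fibroblast markers 4 were called higher and 0 lower in the shGpr151-labelled pair, and 3 higher and 1 lower in the control pair.

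Between the IP libraries, which ask whether ribosome-bound RNA differs with the hairpin, 1 of 44 members was called. Snap47 (ENSMUSG00000009894) held 74, 74 and 72 counts in IP shGpr151 and 110, 114 and 131 in IP control, which is 30.9 normalised CPM in IP shGpr151 and 39.8 in IP control. The columns did not overlap after scaling, and the log2 ratio was -0.36 (-0.61 to -0.12). Columns were also apart for Cplx1, Cplx2, Snap91, Stx6, Stx16 and Stx18, none of them called, and the share over all genes was not worked out. edgeR called 0 members higher (5 higher and 3 lower at an unadjusted p under 0.05), against 3.72% of all genes called higher and 4.97% called lower, so the share of members called was no larger than that background. DESeq2 and limma-voom called 0 in either direction, although DESeq2 gave no adjusted p for 28 members. The median over members was 0.015, beside 0.0035 over all tested genes. The Snap47 call did not hold without any 1 of the columns of IP shGpr151 (-0.37 to -0.39) or without the third column of IP control (-0.31), nor with the replicate number as a block. Of the marker lists, 3 of 5 fibroblast markers were called higher in IP shGpr151 than in IP control, with sums of 316 to 337 in IP shGpr151 and 251 to 267 in IP control, and 2 of 14 neuronal markers were called higher and 3 lower, with sums of 8568 to 8749 in IP shGpr151 and 9246 to 9281 in IP control. Satellite glia gave 1 higher and 2 lower of 8, Schwann cells 0 and 1 of 6, macrophages 1 and 0 of 8, and endothelial and mural cells 0 of 5, and their part in the Snap47 value was not tested. In the docking and priming list 2 of 45 were called lower, the Golgi SNARE Bet1 at -0.44 (-0.75 to -0.13) and the synuclein Sncg, and 0 higher, with a median of -0.038.

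For the deepest members the IP interval was narrow. Vamp2 had a log2 ratio of -0.046 (-0.16 to 0.070), Syt11 -0.054 (-0.14 to 0.035), Syt4 -0.086 (-0.17 to -0.0036) and Snap25 0.11 (0.014 to 0.21), none of them called. In all, 27 of 44 members had an interval that lay within 1.5-fold of no difference in either direction. The others, which include Stx6 at 0.64 (0.12 to 1.17), Syt1 at -0.49 (-0.95 to -0.038), Stxbp5 and Snap23, had intervals that reached past 1.5-fold, and at this depth a difference of that size was not detectable or not excluded. Syn3 was -0.29 (-0.68 to 0.10), and without the first column of IP control, which held 18 counts, it was -0.70 and called.

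**Figure D3:**
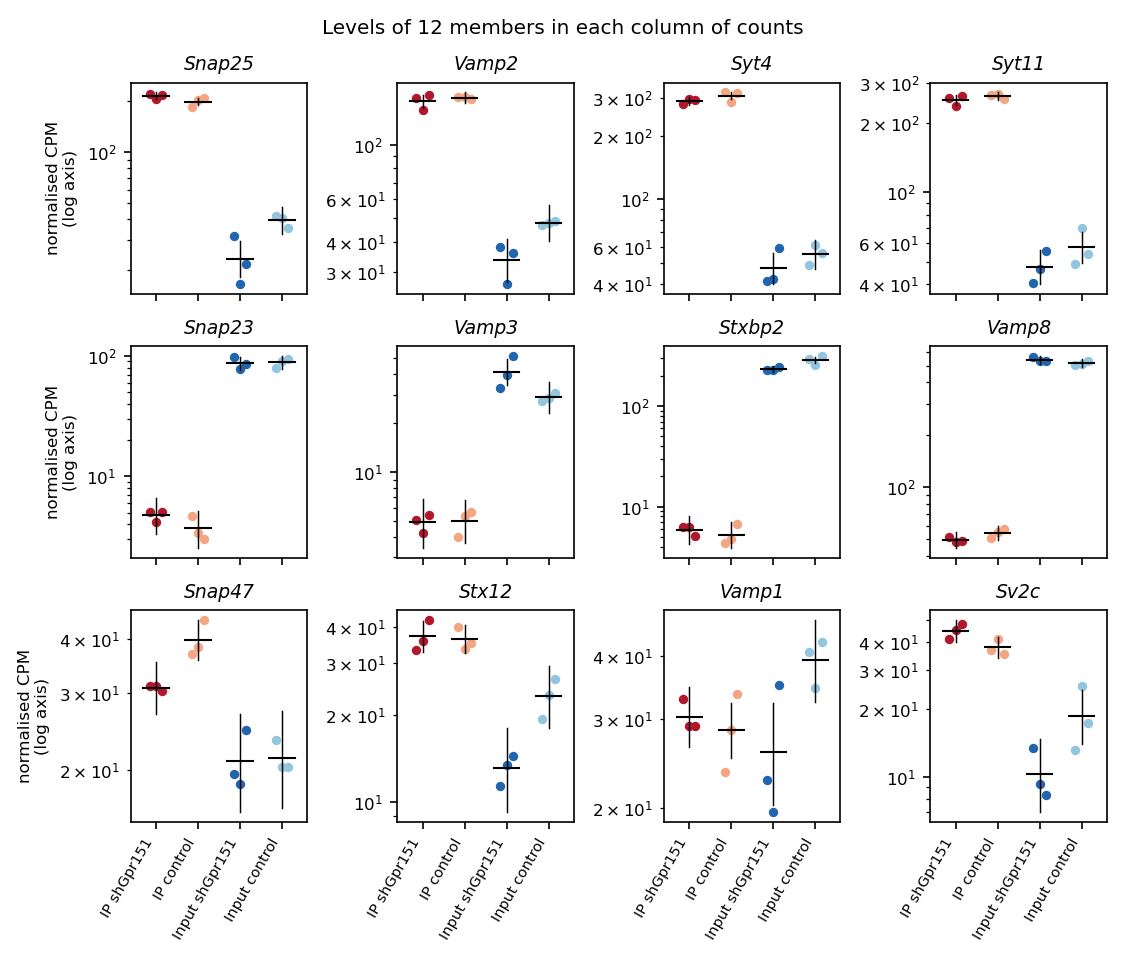
Normalised CPM (log axis) of 12 members in each of the 3 columns of each group (points), with the value of the summed columns (bar) and its 95% counting interval (line). The upper row holds members high in IP, the middle row members low in IP, and the bottom row members called between shGpr151 and control in IP or Input, or in the difference of both.

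In the Input library labelled shGpr151, Snap25, Vamp2, Vamp1, Stx12 and Stxbp2 were called lower than in Input control, so that SNARE genes of the release site stand beside a recycling endosome syntaxin and a Munc18 of non-neuronal granules. The counts were 5 of 44 members lower and 0 higher (9 lower and 3 higher at an unadjusted p under 0.05, edgeR). As a share this is 11.4% of the members, beside 8.66% of all tested genes called lower and 8.31% called higher, so the number called is close to the background. DESeq2, which gave no adjusted p for 9 members, called 1 lower and limma-voom 3, and neither called any higher. The median of the members was -0.24, beside -0.066 for all tested genes, and 30 of 44 lay below 0, or 68.2% beside 54.6% of all genes.

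By column, Snap25 had 31, 16 and 21 counts in Input shGpr151, against 41, 40 and 35 in Input control, groups that did not overlap, and a log2 ratio of -0.75 (-1.20 to -0.31). Without the second column of Input shGpr151 it was -0.56 and not called. Vamp2 had 37, 26 and 35 counts in Input shGpr151, against 46, 47 and 48 in Input control, also without overlap, and -0.50 (-0.89 to -0.12). Vamp1 had 22, 19 and 34 counts in Input shGpr151, against 40, 34 and 42 in Input control, with the third column inside the control range, and -0.61 (-1.05 to -0.18). Stx12 (ENSMUSG00000028879), a recycling endosome syntaxin, had 11, 13 and 14 counts in Input shGpr151, against 19, 23 and 26 in Input control, and -0.82 (-1.43 to -0.23). Stxbp2 had 220, 221 and 235 counts in Input shGpr151, against 288, 251 and 308 in Input control, and -0.30 (-0.45 to -0.16). Each of these 5 calls was lost without at least 1 column of the compared groups, and all 5 were lost when the summed libraries were tested under a biological coefficient of variation (BCV) set to 10%. Neither Stx12 nor Stxbp2 had overlapping columns. After scaling, columns were also apart for members not called, among them Nsf, Syn3, Syt5, Stx7 and Stx4a downwards and Vamp3, Vamp5 and Stx8 upwards. The share over all genes was not worked out. Without 1 column the ratio nearest to 0 among those that lost the call was -0.37 for Vamp2, -0.45 for Vamp1, -0.705 for Stx12 and -0.23 for Stxbp2.

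Further members were low in Input but not called. Sv2c was -0.85 (-1.55 to -0.19), Syn3 -1.08 (-1.90 to -0.30) and Nsf -0.69 (-1.39 to -0.0022). Upwards, Vamp3 was 0.52 (0.11 to 0.94), Stx8 0.36 (0.073 to 0.64) and Vamp5 0.14 (0.041 to 0.24), also not called. Vamp3, Stx8 and Vamp5 share with Stxbp2 a lower level in IP, and Stxbp2 alone of these was called here. The share of members that could be resolved was small here, since only 9 of 44 intervals lay within 1.5-fold of no difference, and Input held a median of 34 summed counts per member in the library labelled shGpr151 and 49 in control, where the medians were 174.5 in IP shGpr151 and 234 in IP control. The 14 neuronal markers gave 1 called higher (Uchl1, 0.44) and 2 lower (Prph, -0.43, and Map2, -0.83), with a median of -0.21. Of these markers 11 lay below 0, or 78.6% beside 54.6% of all tested genes. The summed level of all 14 was 3521 to 3709 normalised CPM over the columns of Input shGpr151 and 3245 to 3281 in Input control. Abundant markers weigh most in this sum, which ran the other way from the median. Of 8 satellite glia markers 4 were called lower and 1 higher, with sums of 1733 to 1817 in Input shGpr151 and 1911 to 2005 in Input control. Macrophage markers gave 0 of 8 called, with sums of 714 to 793 in Input shGpr151 and 671 to 714 in Input control. Of 6 tested Schwann cell markers 1 was called lower (sums of 405 to 445 in Input shGpr151 and 470 to 509 in Input control), of 5 fibroblast markers 1 lower (150 to 164 in Input shGpr151 and 192 to 209 in Input control), and of 5 endothelial and mural markers 3 higher (454 to 498 in Input shGpr151 and 350 to 377 in Input control). No marker in the table was at the lowest sum that the table's limit of 1 count a column allows. Their part in the Input differences was not tested. The docking and priming list had 1 of 45 called lower, Unc13d at -0.46 (-0.48 to -0.44), and 0 higher, with a median of -0.020.

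**Figure D4:**
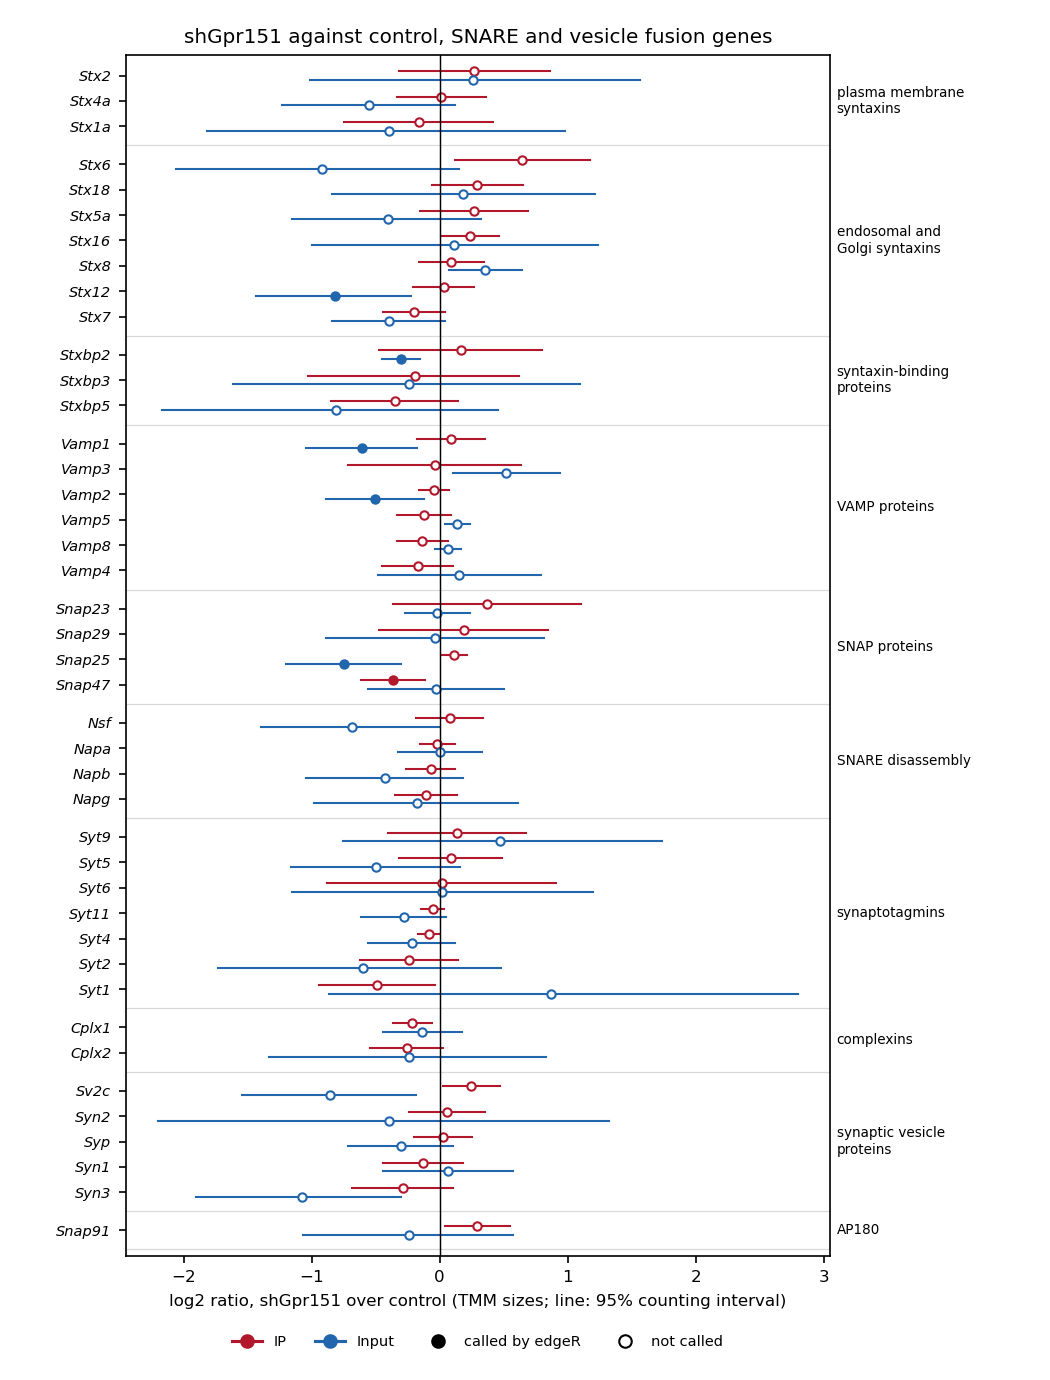
Log2 ratio of shGpr151 over control for 42 of the 44 tested members in IP (red) and in Input (blue), with lines for 95% counting intervals and filled points for edgeR calls. Red points cluster around 0 with only Snap47 filled, while blue points spread further and Snap25, Stx12, Vamp1, Vamp2 and Stxbp2 are filled left of 0.

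The difference between both hairpin comparisons (log2 ratio in IP minus log2 ratio in Input) was called above 0 for 5 members and below 0 for none (8 and 1 at an unadjusted p under 0.05, edgeR), against 5.41% of all genes called above and 8.82% below. Among them were Stx6, a trans-Golgi syntaxin, at 1.56 (0.44 to 2.69), Sv2c at 1.10 (0.42 to 1.78), Snap25 at 0.86 (0.42 to 1.31) and Stx12 at 0.85 (0.23 to 1.47). DESeq2, which gave no adjusted p for 10 members, called 2 above 0 and limma-voom 3, and neither called any below. For Stx6 the counts were 26, 18 and 27 in IP shGpr151, 17, 19 and 21 in IP control, 3, 6 and 3 in Input shGpr151 and 7, 10 and 6 in Input control, so that value rests on few Input counts. For Sv2c they were 98, 107 and 114 in IP shGpr151, 109, 123 and 105 in IP control, 13, 9 and 8 in Input shGpr151 and 13, 25 and 17 in Input control. In these 4 genes the difference came with an Input ratio below 0 and an IP ratio between 0.032 for Stx12 and 0.64 for Stx6. The median of the 44 was 0.22, beside 0.059 for all tested genes. The same values are also the differences between IP over Input in the libraries labelled shGpr151 and in control, so they repeat in another form the gaps seen between the treatments in the first comparison. Snap25 kept its call without any 1 of the 12 columns, and Stx6, Sv2c and Stx12 lost theirs without at least 1, with lowest values of 1.33 for Stx6, 0.82 for Sv2c and 0.68 for Stx12. Among the neuronal markers Map2, Prph, Nefl and Nefm were called above 0 too, and Uchl1 and Stmn2 below. Of the other marker lists, fibroblast markers had 3 of 5 called above 0 (median 0.69), satellite glia markers 3 of 8 above and 1 below, endothelial and mural markers 3 of 5 below (median -0.48) and macrophage markers 1 of 8 below, while 0 of 6 Schwann cell markers were called. Their part in the members' values was not tested. In the docking and priming list Unc13d was called above 0, and Bet1, Sncg and Use1 below.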

How the data were processed

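RNA of 12 samples in 4 groups was measured by nanopore cDNA-PCR sequencing. The authors deposited 1 table of read counts per gene, whose values are whole numbers, and minimap2, Salmon and the build GRCm39 (mm39) are named in the submitters' processing notes, without versions or roles. Column totals ran from 1094523 to 2111544 counts. Ensembl identifiers were paired with symbols for 9061 of 9073 genes. Columns of a group were summed and counted as 1 sample, because over all genes they differed by no more than counting noise (among members, Syn3 in IP control split further), and the labels do not say that they came from separate animals or cultures. Calls used edgeR 4.0.16 (R 4.3.3; quasi-likelihood test on 12 columns, TMM scaling, filterByExpr with a minimum count of 10, Benjamini-Hochberg threshold 0.05), and p-values of that test measure only the spread between columns, which may be technical. Ratios came from summed counts over summed TMM sizes, with exact conditional binomial 95% intervals, or Wald intervals for a difference of ratios. Alternatives were other scalings, filters and tools (DESeq2 1.42.0, limma 3.58.1), a replicate block, summed libraries and leaving out each column, and 1 rule of at least 1.5-fold was added after the data were seen. Genes named are the most counted of each role, every member called between hairpin and control or in their difference, the 4 largest called IP over Input ratios in each direction, and others for their role. The members and lists were chosen with earlier results of these data known. Of the members, 2 are in every fit and count but have no value of their own reported here. Figures were drawn with matplotlib 3.10.9.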

Additional observations from a re-analysis of the deposited data

Results flagged for a closer look

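For Stx6, Sv2c, Snap25 and Stx12 the difference between the hairpin comparisons, the log2 ratio in IP minus that in Input, passed edgeR's test of the difference itself. The values were 1.56 for Stx6, 1.10 for Sv2c, 0.863 for Snap25 and 0.850 for Stx12. That test compares these libraries, each group being 1 sample, and it has no replicate check.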

How the results depend on the processing

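IP over Input counts of members called kept within 1.5 times of their reported values under every alternative run except total counts alone in the control pair, which gave 39 higher and 4 lower. Total counts alone also turned the sign of Snap29 (1.55 in the shGpr151-labelled pair, 1.31 in the control pair), and likewise, in that order of pairs, of Stx8 (0.907 and 1.15), Stxbp3 (2.11 and 2.04) and Syt6 (1.49 and 1.47), of Syn1 (2.03) in the shGpr151-labelled pair, and of Stx5a (1.92), Stx6 (1.89), Syt5 (1.81) and Vamp1 (1.72) in the control pair; these are that scaling's own construction. Between the IP libraries, members called lower numbered 2 with RLE size factors and 0 with total counts, DESeq2, limma-voom, the replicate block and an assumed BCV of 10%, and the rule of at least 1.5-fold, chosen after seeing the data, gave 1 higher and 0 lower. Between the Input libraries, members called lower numbered 1 with DESeq2, 3 with limma-voom, 8 where genes needed 20 counts on average and 0 with the assumed BCV, and members called higher 2 with RLE size factors, 2 with total counts, 3 with the compared groups alone and 1 with the exact binomial test. The difference of both had 2 called above 0 with RLE size factors, 2 with DESeq2, 3 with limma-voom and 0 with the assumed BCV. Except where stated, the cause was not tested.

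Leaving out 1 column at a time gave 22 to 26 called higher and 6 called lower for IP over Input in the shGpr151-labelled pair, and 21 to 24 higher and 6 to 8 lower in the control pair. It gave 0 higher and 0 to 3 lower between the IP libraries, 0 to 1 and 1 to 4 between the Input libraries, and 2 to 4 above and 0 to 1 below 0 for their difference. Same-numbered columns did not deviate together (correlations of -0.058 to 0.057 over 18 pairs of groups and numbers, 2944 genes). Over all genes the columns held no spread beyond the sampling of reads, which leaves nothing for such a correlation to pick up. Whether the numbers pair samples therefore cannot be decided by this check. With the replicate block the counts called higher and lower were 0 and 0 between the IP libraries, 0 and 6 between the Input libraries, 26 and 6 for IP over Input in the shGpr151-labelled pair, 23 and 8 in the control pair, and 4 and 0 for the difference. The compared groups alone cannot give the difference. Few counts a member limit Input most, with a median of 34 in Input shGpr151 and 49 in Input control, although the Input libraries had larger totals than the IP libraries.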
